A study of Mus musculus with 4 samples.

Results

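Neutrophils carry their weapons in granules that are filled in order as the cell matures in the bone marrow. Promyelocytes make the azurophil granule proteins, myelocytes and metamyelocytes make the specific granule proteins, and band cells make the gelatinase granule proteins. The transcripts of each set are largely shut off once its granule is full, so granule mRNAs left in a neutrophil bear on its stage. By themselves they do not date its exit from the marrow, and Lcn2, Mmp8 and Mmp9 also occur in other cells. C/EBP and PU.1 factors are known to drive these genes, and C/EBPε is needed for the specific granule set.

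The genes described here are 10 granule protein genes of the 32285 genes in the deposited table, ordered by stage. The azurophil set is Elane (neutrophil elastase), Mpo (myeloperoxidase), Prtn3 (proteinase 3) and Ctsg (cathepsin G). The specific granule set is Ltf (lactoferrin), Camp (cathelicidin), Ngp (neutrophilic granule protein, a cathelicidin relative) and Lcn2 (lipocalin 2, which binds siderophores). The last set is the metalloproteinases Mmp8 (neutrophil collagenase, a protein of specific granules) and Mmp9 (gelatinase B, which gives gelatinase granules their name). They were taken by name.

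The cells were viable CD45+ leukocytes sorted from orthotopic EO771 mammary tumors of 1.5 cm3 in female mice. EO771 is a mouse mammary carcinoma line of C57BL/6 origin. The 2 Csf1rfl/fl mice carried floxed Csf1r alleles without Cre, and the 2 Lyve1CreCsf1rfl/fl mice carried the same alleles with a Cre driven by Lyve1. Csf1r encodes the receptor that macrophages need for survival, and Lyve1 is active in lymphatic endothelium as well as in a subset of macrophages. Each of 2 Chromium runs pooled 1 tumor of each genotype under hashtag antibodies, and values are UMIs (single captured transcripts) of the 28429 cells that the authors kept, from 8699 and 7786 cells of the Csf1rfl/fl tumors of runs 1 and 2 and from 7173 and 4771 cells of the Lyve1CreCsf1rfl/fl tumors.

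Between 27686362 and 56715743 UMIs were counted per tumor, with a median of 3721 to 4657 per cell. The 2 runs shared 60 cell barcode sequences among the kept cells. In monocytes and macrophages Csf1r was at 1.82 and 2.003 UMIs per 10000 in the Csf1rfl/fl tumors and at 1.24 and 1.31 in the Lyve1CreCsf1rfl/fl tumors. A 3′ tag does not show whether the floxed part was deleted, so this does not check the genotype. Scrublet, a caller of droplets with more than 1 cell, marked 28.2% and 19.5% of the kept cells of run 1 and 3.25% and 6.08% of those of run 2, Csf1rfl/fl first.

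Neutrophils were gated by markers that include none of the 10 genes. A neutrophil had at least 80 UMIs of S100a8 and S100a9 together per 10000, at least 1 of 7 further markers (Csf3r, Cxcr2, Retnlg, G0s2, Il1r2, Mxd1 and Hdc), and not more than 1 marker of any other lineage. The gate took 4429 cells, 972 and 1490 from the Csf1rfl/fl tumors of runs 1 and 2 and 1351 and 616 from the Lyve1CreCsf1rfl/fl tumors. The gate itself fixed that these markers were present, so their levels describe the cells and do not check the label. Mxd1, a repressor raised in late neutrophils, had a UMI in 92.6% of them, Csf3r (the G-CSF receptor) in 83.7%, and Cxcr2 (the chemokine receptor that marks marrow exit) in 64.6%. Markers of other lineages were held low by the gate, and the highest list, of 11 monocyte and macrophage genes, summed to between 2.22 and 3.45 UMIs per 10000. The other classes were 7663 monocytes and macrophages, 7986 T cells, 2117 dendritic cells, 1869 NK cells, 197 stromal or tumor cells, 177 B cells and 7 mast cells, basophils or eosinophils, and 1239 cells were in no gate. A further 2745 cells had high S100a8 and S100a9 together with markers of another lineage, Scrublet called 61.8% of them doublets, and they were kept apart.

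The promoters of a pair of azurophil genes and a pair of specific granule genes are shown first, with the letters that PU.1 and C/EBP factors are known to bind. Sequences are from RefSeq on GRCm38.p6 and run 5′ to 3′ from 250 bases before to 50 after the transcription start. Capitals mark the PU.1 letters GAGGAAGT or the C/EBP letters TTGCNNAA, searched on both strands, where N is any base. The 2 motifs do not overlap in these windows. Elane and Prtn3 are neighbours on chromosome 10, with 3072 bases between them, and Ngp and Ltf lie on chromosome 9.
Elane, chr10:79886062-79886361, plus strand: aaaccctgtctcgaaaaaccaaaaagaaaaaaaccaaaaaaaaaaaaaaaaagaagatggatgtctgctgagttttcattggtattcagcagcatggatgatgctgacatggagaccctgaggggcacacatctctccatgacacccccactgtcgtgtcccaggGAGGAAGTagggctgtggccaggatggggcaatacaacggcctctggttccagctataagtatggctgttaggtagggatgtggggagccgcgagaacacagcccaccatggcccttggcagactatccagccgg
Prtn3, chr10:79879417-79879716, plus strand: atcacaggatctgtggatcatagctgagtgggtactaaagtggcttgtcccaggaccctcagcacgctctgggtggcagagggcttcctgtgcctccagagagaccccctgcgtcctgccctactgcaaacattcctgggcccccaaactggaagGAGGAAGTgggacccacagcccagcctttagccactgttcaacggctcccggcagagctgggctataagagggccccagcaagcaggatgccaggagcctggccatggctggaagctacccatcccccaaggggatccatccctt
Ngp, chr9:110419558-110419857, plus strand: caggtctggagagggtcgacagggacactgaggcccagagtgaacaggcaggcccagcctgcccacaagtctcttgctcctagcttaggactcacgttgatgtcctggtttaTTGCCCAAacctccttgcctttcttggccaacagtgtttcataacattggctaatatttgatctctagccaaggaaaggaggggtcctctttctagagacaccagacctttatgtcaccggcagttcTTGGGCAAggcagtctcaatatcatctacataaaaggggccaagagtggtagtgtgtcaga
Ltf, chr9:111019042-111019341, plus strand: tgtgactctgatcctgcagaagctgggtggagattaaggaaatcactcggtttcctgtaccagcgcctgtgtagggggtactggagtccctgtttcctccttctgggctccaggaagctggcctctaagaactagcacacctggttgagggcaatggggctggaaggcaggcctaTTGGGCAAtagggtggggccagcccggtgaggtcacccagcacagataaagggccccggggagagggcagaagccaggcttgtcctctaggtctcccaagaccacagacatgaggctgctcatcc

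The PU.1 letters stood 85 bases before the start of Elane and 95 before that of Prtn3, counted to the first base of the match, and also in the promoters of Mpo and Mmp8. The C/EBP letters stood in those of Ltf, Ngp, Lcn2 and Mmp8. The promoters of Ctsg and Camp held neither, and that of Mmp9 was not analysed here. Of all 32851 promoters of the same length, 3.20% held the PU.1 letters and 10.8% the C/EBP letters. A match is a description of letters and not of binding.

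Gated neutrophils had no detectable mRNA of Elane, Mpo or Ctsg. Each was at 0 UMIs in 4429 cells, which allows up to 0.0677% of the cells with a UMI by a limit of 3 counts, or 0.0833% by the exact 95% interval, and Prtn3 was at 8 UMIs in 8 cells. Early cells could fall outside the gate, since cell 1 described below, rich in these mRNAs, lies under its S100a8 and S100a9 minimum. The specific and gelatinase genes were all present but very unequal. Lcn2 had a UMI in 52.2% of neutrophils (exact 95% binomial interval 50.7% to 53.7%), Mmp9 in 40.6% and Mmp8 in 18.0%, against 4.18% for Ngp, 1.83% for Ltf and 0.813% for Camp. These intervals and limits cover counting error only. After every cell was thinned to 1000 UMIs, with 159 shallower neutrophils left out, the order was the same, at 40.9% for Lcn2, 26.4% for Mmp9, 10.9% for Mmp8, 2.58% for Ngp, 0.984% for Ltf and 0.328% for Camp.

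Lcn2 was the most abundant of the 10. In neutrophils it was at 18.1 and 9.59 UMIs per 10000 in the Csf1rfl/fl tumors of runs 1 and 2 and at 10.8 and 9.18 in the Lyve1CreCsf1rfl/fl tumors of runs 2 and 1. The Csf1rfl/fl tumor of run 1 stood above the other 3, which lay close together. Mmp9 was at 4.29 and 4.57 in the Csf1rfl/fl tumors and at 2.91 and 3.77 in the Lyve1CreCsf1rfl/fl tumors of runs 1 and 2, and Mmp8 was at 2.92 and 1.73 against 1.24 and 2.21. For Lcn2 and Mmp8 the genotypes overlapped. For Mmp9 they did not, but the share of all genes that separate in this way was not counted. No difference is read from it, since an exact permutation test of 2 against 2 tumors cannot give a two-sided p under 0.333.

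**Figure D1:**
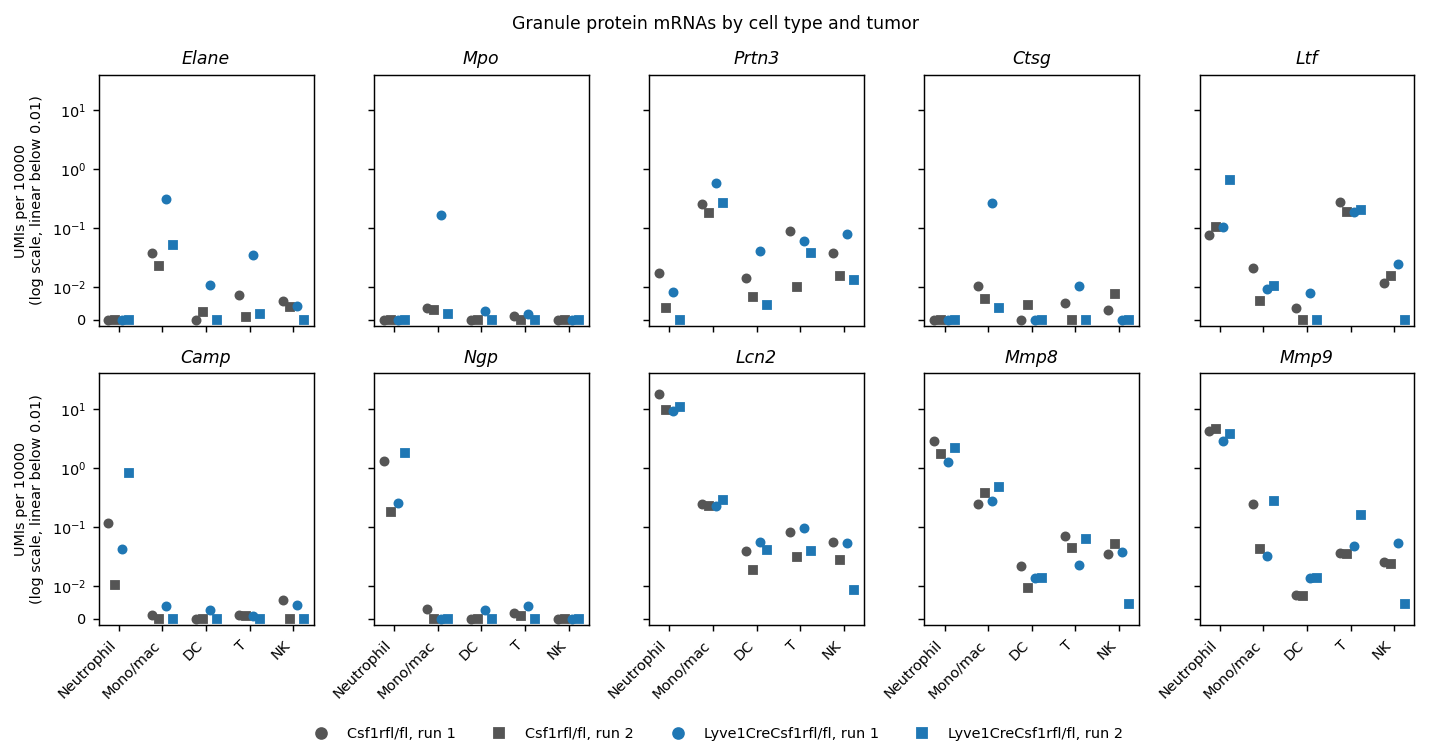
UMIs per 10000 of each of the 10 genes in 5 gated classes, on a log axis that is linear below 0.01, with 1 point per tumor, gray for Csf1rfl/fl, blue for Lyve1CreCsf1rfl/fl, circles for run 1 and squares for run 2. Camp, Ngp, Lcn2, Mmp8 and Mmp9 are higher in neutrophils than in the other classes in every tumor, Elane, Mpo and Ctsg are at 0 in neutrophils, and for Ltf the neutrophils lie below the T cells in 3 tumors and above them in 1.

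Against monocytes and macrophages of the same tumors, neutrophils were higher in the later granule genes and lower in the azurophil genes Prtn3 and Elane. In monocytes and macrophages Lcn2 lay between 0.224 and 0.283 UMIs per 10000, Mmp8 between 0.248 and 0.475, Mmp9 between 0.0321 and 0.280, and Ngp had 5 UMIs in all, each in the Csf1rfl/fl tumor of run 1. With UMIs summed per tumor and class and tumor as a block, the log2 difference for Lcn2 was 6.85 ± 0.18 (SE) by the quasi-likelihood test of edgeR, with a Benjamini-Hochberg adjusted p of 1.5e-17. These differences carry the TMM scaling factors of the fit, which correct for the make-up of each library. The difference was 6.33 ± 0.37 for Mmp9 and 3.85 ± 0.19 for Mmp8, and Lcn2, Mmp9 and Mmp8 passed the test. Ltf, Ngp, Prtn3 and Elane passed the filter on low counts only through the class where they are high. Their calls therefore carry no weight and no fitted difference is given for them. Prtn3 lay between 0 and 0.0171 UMIs per 10000 in neutrophils and between 0.177 and 0.578 in monocytes and macrophages. Ltf lay between 0.0767 and 0.643 in neutrophils and between 0.00578 and 0.0213 in monocytes and macrophages. Since Elane was at 0 in neutrophils, only a bound holds. On the scale of UMIs per 10000, without the scaling factors, it was at least 26.8-fold lower against a floor of 3 counts over the class. It was at least 11.5-fold lower without the 1 cell in the monocyte and macrophage gate that was rich in azurophil mRNAs. Elane did not pass the filter without that cell or its tumor. Mpo and Ctsg, also at 0 in neutrophils, had bounds of 10.1-fold and 17.3-fold, but of only 1.06-fold and 2.94-fold without that cell. With the scaling factors these bounds would be lower, so no difference is read for Mpo. Camp, Mpo and Ctsg did not pass the filter on low counts in this fit. These calls must be read against the background, since 76.1% of the 10079 genes tested differed between these classes and 34.5% were higher in neutrophils. The median log2 difference of all genes tested was -0.28. On library totals alone, the scale of the levels above, that median was -1.58, and 18.1% of the genes called were higher in neutrophils in place of 45.4%. On that scale Lcn2, Mmp9 and Mmp8 kept their direction and call, with log2 differences of 5.56, 5.03 and 2.55.

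Among the other genes of the granules, fixed as lists, specific and gelatinase partners were mostly higher in neutrophils. Of 20 listed, 19 were tested, 14 were higher and 5 lower, with a median log2 difference of 2.41 beside -0.28 over all genes tested. On library totals 13 were higher and 6 lower, with a median of 1.12 beside -1.58, and the gene that turned was Itgb2 (an integrin subunit of leukocytes), at 0.94 with the scaling factors and -0.36 without. Pglyrp1, a peptidoglycan-binding protein of specific granules, was at 4.11 to 6.85 UMIs per 10000 in neutrophils, and differed by 5.53 ± 0.14 on the log2 scale (adjusted p = 1.02e-17, edgeR), or by 4.24 on library totals. The 5 that were lower on both scales were Lyz2 (lysozyme), Chil3 (a chitinase-like protein), Arg1 (arginase 1) and Cybb and Cyba (the subunits of the NADPH oxidase membrane complex), all of which macrophages make as well. Cyba was not called without the tumor block (adjusted p = 0.105, edgeR). The counts include Olfm4 among the higher and Arg1 among the lower, which passed the filter on low counts only through the class where they are high. Their calls carry no weight. Olfm4 was at most at 0.00182 UMIs per 10000 in monocytes and macrophages, and Arg1 at most at 0.0434 in neutrophils. The azurophil partners were split, and like the factors below were called about as often as the 76.1% of all genes. Of 8 listed, 5 were tested, Srgn (the serglycin core that holds proteases in the granule) was higher, and Ctsc (the protease that activates the serine proteases) and Cst7 (its inhibitor) were lower. These 3 held on library totals, whereas Cd63 (a membrane protein of azurophil granules) passed only with the scaling factors, at 1.65, and was at 0.35 without them (adjusted p = 0.1003, edgeR). Of 8 granulopoiesis factors, 6 were tested, and on both scales Cebpb and Cebpd were higher while Cebpa was lower. Spi1 (which encodes PU.1) and Runx1 changed direction with the scaling. Their log2 differences were 0.998 and 0.906 with the factors and -0.29 and -0.39 on library totals, past the test each time, and their levels per 10000 were lower in neutrophils in all 4 tumors. Cebpe, which encodes C/EBPε, had 24 UMIs in all neutrophils and did not pass on either scale (adjusted p = 0.151 and 0.0706, edgeR).

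Most of the Mpo, Ctsg and Elane mRNA sat in 3 cells, while most of the Prtn3 lay elsewhere. The 3 were chosen for their content, as the only kept cells with at least 100 UMIs of the 4 genes together, and the next cell had 77. Cell 1, of the Lyve1CreCsf1rfl/fl tumor of run 1, held 243 UMIs of Elane, 178 of Mpo, 267 of Prtn3 and 206 of Ctsg among 33789 UMIs. Cell 2, of the same tumor, held 204, 120, 228 and 191 among 48913. Cell 3, of the Csf1rfl/fl tumor of run 1, held 27, 43, 53 and 20 among 11563. Together they held 93.9% of the Mpo UMIs of all kept cells, 85.8% of those of Ctsg, 64.9% of Elane and 24.1% of Prtn3.

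These 3 cells carried genes of progenitors and next to none of the later granules. Myb, a factor of immature blood cells, had 8, 10 and 4 UMIs in cells 1, 2 and 3, and Kit, the stem cell factor receptor, had 2, 3 and 1. Cd34, a surface protein of progenitors, had 0, 4 and 2. Ms4a3, a gene of granulocyte and monocyte progenitors, had 67, 63 and 1. Ltf, Camp, Ngp, Mmp8 and Mmp9 were at 0 in all 3, and Lcn2 had 3 UMIs in cell 1 and 0 in the others. Cell 2 was called a doublet by Scrublet and fell in the gate for monocytes and macrophages, while cells 1 and 3 were in no gate. No barcode that the authors had left out reached 100 UMIs of the 4 genes, and the highest there had 31.

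Outside these 3 cells, Prtn3 was still found in 885 cells and Elane in 159, with the most in monocytes. The monocytes and macrophages were split, after their values were seen and so with no test, by UMIs of Ly6c2 (a surface protein of inflammatory monocytes) and of C1qa, C1qb and C1qc (complement genes of mature macrophages). In 4581 cells with Ly6c2 and no C1q, Prtn3 was at 0.408 and 0.282 UMIs per 10000 in the Csf1rfl/fl tumors of runs 1 and 2 and at 0.367 and 0.338 in the Lyve1CreCsf1rfl/fl tumors. In the 1962 cells with both it was at 0.152 and 0.0699, and at 0.180 and 0.195. The levels of the first set were above those of the second in each of the 4 tumors.

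Among 546 cells with C1q and no Ly6c2, 4 had a Prtn3 UMI, all in the Csf1rfl/fl tumor of run 1. In 573 cells with neither there were 0, which allows a share of up to 0.524%. Elane followed the same order at a lower level, between 0.0351 and 0.0664 UMIs per 10000 in the cells with Ly6c2 alone, between 0.0125 and 0.0336 in those with both, and at 0 in the others. The share of cells with a Prtn3 UMI was 9.39%, 4.79%, 0.733% and 0% over the 4 sets at median depths of 4737, 5785, 4340 and 3791 UMIs. Thinned to 1000 UMIs, these shares were 2.93%, 0.868%, 0.188% and 0%. In T cells, which should lack the gene, 1.41% had a Prtn3 UMI at a median depth of 4372.5 UMIs (0.327% thinned).

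**Figure D2:**
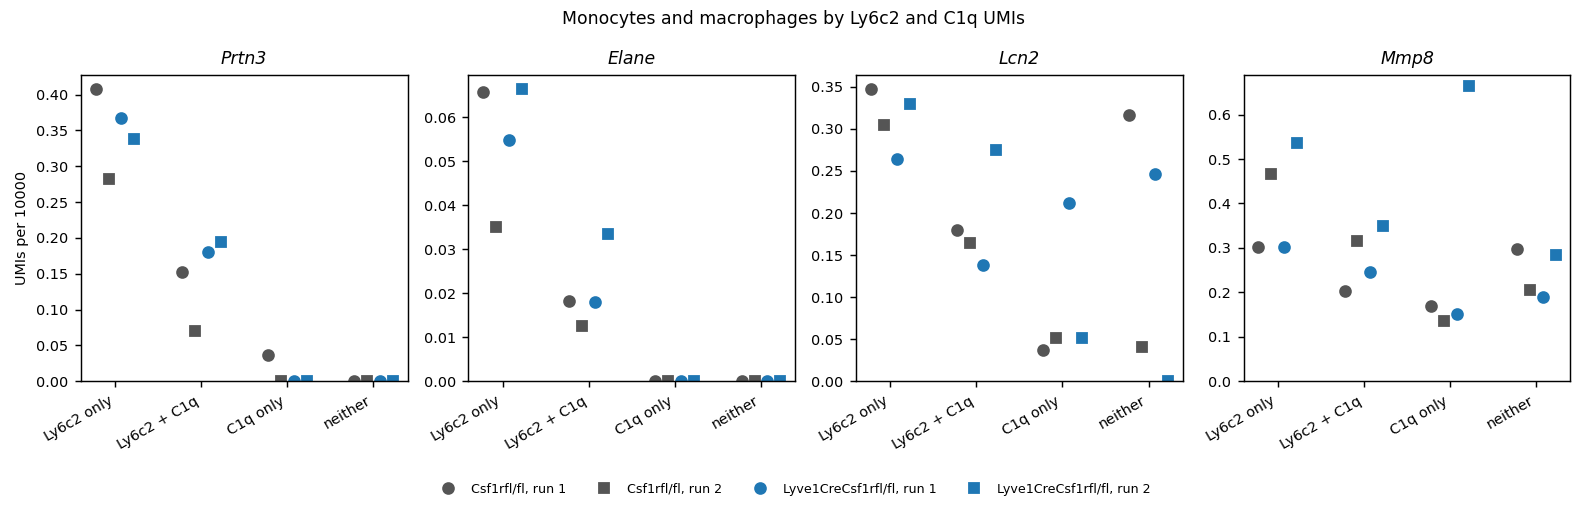
UMIs per 10000 of Prtn3, Elane, Lcn2 and Mmp8 in monocytes and macrophages split by UMIs of Ly6c2 and of the C1q genes, with 1 point per tumor and the 1 cell rich in azurophil mRNAs left out. Prtn3 and Elane are highest in cells with Ly6c2 alone, lower in cells with both and at or near 0 in cells without Ly6c2, while Mmp8 is present in all 4 sets.

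Mmp8 and Lcn2 were also found in these cells. A UMI of Mmp8 was present in 12.5% of the cells with Ly6c2 alone, 10.04% of those with both, 6.41% of those with C1q alone and 5.06% of those with neither. Mmp8 in the whole class was in 10.9% of cells (3.06% thinned), beside 1.79% of T cells (0.302% thinned), and Lcn2 in 7.18% (2.11% thinned), beside 2.23% of T cells (0.567% thinned). Mmp9 was different, since 2 single cells held most of it. In the Csf1rfl/fl tumor of run 1 and the Lyve1CreCsf1rfl/fl tumor of run 2, 1 cell each held 319 of 400 and 150 of 159 Mmp9 UMIs of the class.

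Ltf was the exception among the specific granule genes, because T cells held more of it than neutrophils did. Of all Ltf UMIs in kept cells, 67.5% were in T cells, where it was at 0.281 and 0.188 UMIs per 10000 in the Csf1rfl/fl tumors of runs 1 and 2 and at 0.189 and 0.199 in the Lyve1CreCsf1rfl/fl tumors. The 4 tumors thus lay close together. In neutrophils the same gene was at 0.0767 and 0.105, and at 0.104 and 0.643, and in the last 1 cell held 58 of the 74 Ltf UMIs of that tumor's neutrophils. Without that cell it was at 0.140, so that in each tumor neutrophils then lay below T cells. NK cells had at most 0.0248 and dendritic cells at most 0.00804. No annotated gene overlaps Ltf, which spans 23497 bases of chromosome 9, from 111019271 to 111042767 on mm10 (GENCODE vM21, plus strand).

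The T cells with Ltf were largely CD8 T cells. In cells with Cd8a or Cd8b1 and no Cd4 or Foxp3 UMI, a split made after values were seen and so not tested, Ltf was at 0.445 and 0.350 UMIs per 10000 in the Csf1rfl/fl tumors and at 0.332 and 0.347 in the Lyve1CreCsf1rfl/fl tumors. In Foxp3 T cells, the regulatory T cells, it was between 0.0932 and 0.112, and in other Cd4 T cells between 0.0115 and 0.0668. The CD8 levels were above both in every tumor. A Ltf UMI was present in 9.57% of the 3386 CD8 T cells (3.40% after thinning).

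Of the 420 T cells with Ltf, 241 had 2 or more UMIs of it, 58 had 5 or more and the highest had 15. Not 1 of the 420 had a UMI of Camp or Ngp, but of the 7566 other T cells only 4 had Camp and 8 had Ngp, so this says little. Retnlg, an abundant neutrophil transcript, was at 0.108 UMIs per 10000 beside 0.125 in the 7566 other T cells. Within the CD8 T cells, 324 with Ltf and 3062 without, Gzmb (granzyme B, a cytotoxic protease) was at 6.45 and 5.56 UMIs per 10000 and Tcf7, a factor of naive and memory T cells, at 0.0736 and 0.805. Pdcd1, which encodes the PD-1 receptor, was at 1.55 and 1.64, and these values are descriptions with no test. Over all T cells, those with Ltf were deeper, with a median of 5615.5 UMIs beside 4284, and Scrublet called 15.0% and 14.2% of the 2 sets doublets.

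**Figure D3:**
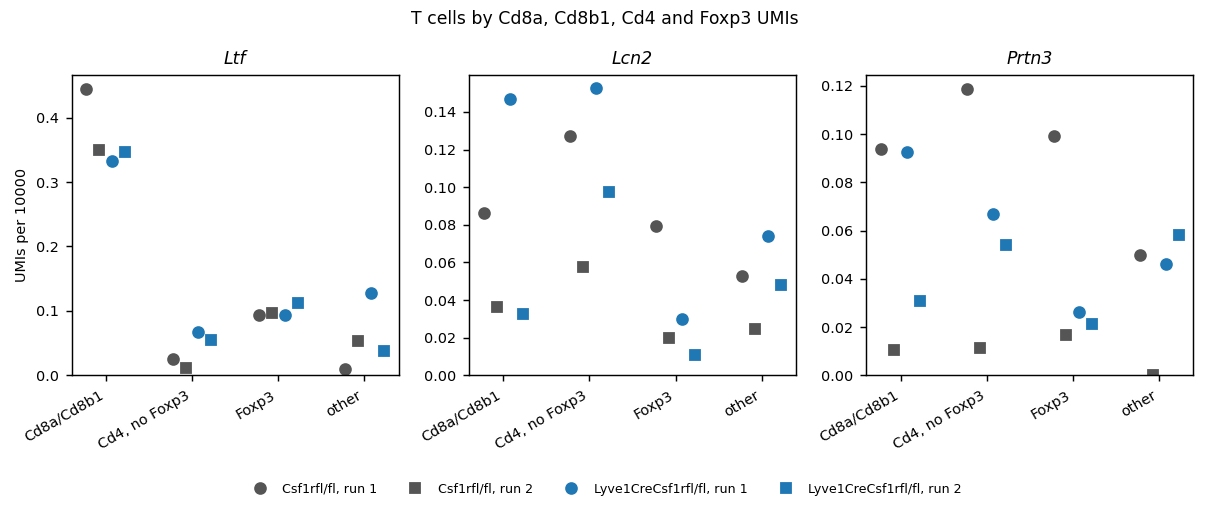
UMIs per 10000 of Ltf, Lcn2 and Prtn3 in T cells split by UMIs of Cd8a or Cd8b1, Cd4 and Foxp3, with 1 point per tumor. Ltf is between 0.332 and 0.445 in CD8 T cells of the 4 tumors and not above 0.127 in any other set, a pattern that Lcn2 and Prtn3 do not share.

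Ngp and Camp were left in few gated neutrophils, and unevenly across tumors. More of their UMIs lay in the 2745 cells kept apart, with 58.4% of all Ngp UMIs and 58.0% of Camp in kept cells. Gated neutrophils held 40.6% and 38.4%. The cells kept apart were deeper, at a median of 5779 UMIs beside 1909 in neutrophils. Thinned to 1000 UMIs, 2.52% of them had Ngp and 0.329% Camp, beside 2.58% and 0.328% of neutrophils. Ngp had a UMI in 9.36% of the neutrophils of the Csf1rfl/fl tumor of run 1 (exact 95% interval 7.60% to 11.4%). In the Csf1rfl/fl tumor of run 2 the share was 2.35% (1.64% to 3.25%), and in the Lyve1CreCsf1rfl/fl tumors of runs 1 and 2 it was 3.03% and 2.92%. The share was highest in the first tumor, above that of the tumor from the same run, and these intervals cover the counting of cells and not the spread between tumors. Cells with 5 or more UMIs of Camp, Ngp and Ltf together numbered 20 of 972 there, and 1 of 1490, 3 of 1351 and 3 of 616 in the others. As a level Ngp was at 1.33 and 0.179 UMIs per 10000 in the Csf1rfl/fl tumors and at 0.256 and 1.81 in the Lyve1CreCsf1rfl/fl tumors. A single neutrophil of the last tumor, with 177 UMIs of Ngp, 88 of Camp and 58 of Ltf among 5288, held most of it, and without this cell Ngp was at 0.279 there and Camp at 0.0523 in place of 0.816.

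The 281 neutrophils with a UMI of Camp, Ngp or Ltf were compared with the 4148 without, at median depths of 2581 and 1880 UMIs. By ratio of UMIs per 10000, with 0.05 added to both, the 5 genes most like these in pattern were Adpgk (a glucokinase that uses ADP), Cd177 (a neutrophil surface protein), Mmp8, Ggt1 (a gamma-glutamyl transferase) and Ly6g (the surface antigen of mouse neutrophils). Their ratios were 4.86, 3.83, 3.82, 3.66 and 3.53, among 251 genes that were higher in each tumor with at least 20 UMIs. Of the 281 cells, 107 came from the Csf1rfl/fl tumor of run 1, and with the 4 tumors weighted equally the same 5 genes ranked first, at ratios from 3.20 for Ly6g to 5.34 for Adpgk. Lcn2 was at 31.0 UMIs per 10000 in the first set and 9.81 in the second, and Mmp8 at 5.95 and 1.52. Cxcr2 was at 7.35 and 7.44 over all cells, but at 8.12 and 7.47 with the 4 tumors weighted equally. It was among the 251 genes that were higher in the first set in each tumor. Of the 185 neutrophils with Ngp, 93.0% also had Lcn2 and 65.4% had Mmp8, beside 52.2% and 18.0% of all neutrophils. The cells with Ngp were deeper, at a median of 2994 UMIs beside 1881.5 in those without, and 91 of them came from the Csf1rfl/fl tumor of run 1. As levels per 10000, Lcn2, Mmp8 and Mmp9 were higher with Ngp in each of the 4 tumors, Lcn2 at 31.7 to 50.1 beside 8.08 to 14.3. Of the 81 with Ltf, 9.88% had Ngp, beside 4.18% of all neutrophils, and 51.9% had Lcn2, beside 52.2%.

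Neutrophils were also split by genes outside the 10 that are taken as markers of immature cells. The immature list (Fcnb, Ms4a3, Cebpe, Chil3, Serpinb1a, Cd177, Olfm4 and Itgb2l) was unevenly expressed in all neutrophils, from 1 UMI of Fcnb and 2 of Ms4a3 to 260 of Cd177 (4.88% of cells) and 342 of Olfm4 (3.61%), while the mature markers Csf3r, Cxcr2, Il1r2, Fpr1 and Mxd1 each had a UMI in 38.6% to 92.6% of the cells. All of these but Fpr1 are gate markers, so their presence was partly fixed and gives no reading of stage. After thinning, 252 of 4270 neutrophils had a UMI of the immature list, between 4.90% and 7.03% per tumor. Lcn2 and Mmp8 were higher in these cells in all 4 tumors, a description with no test. The share of all genes that were higher in this way was not counted. Cd177, Olfm4 and Chil3 of this list are also among the specific and gelatinase partners above. The split is therefore not independent of those granules. Lcn2 was at 25.6, 13.3, 13.7 and 16.3 UMIs per 10000 with a marker and at 15.1, 9.08, 7.91 and 9.69 without, in the Csf1rfl/fl tumors of runs 1 and 2 and then the Lyve1CreCsf1rfl/fl tumors. Mmp8 was at 4.75, 2.30, 1.69 and 4.39 with and at 2.17, 1.64, 0.920 and 2.07 without. Ngp was higher in 3 of 4 tumors and Mmp9 in 2 of 4. Elane, Mpo and Ctsg were at 0 on both sides.

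**Figure D4:**
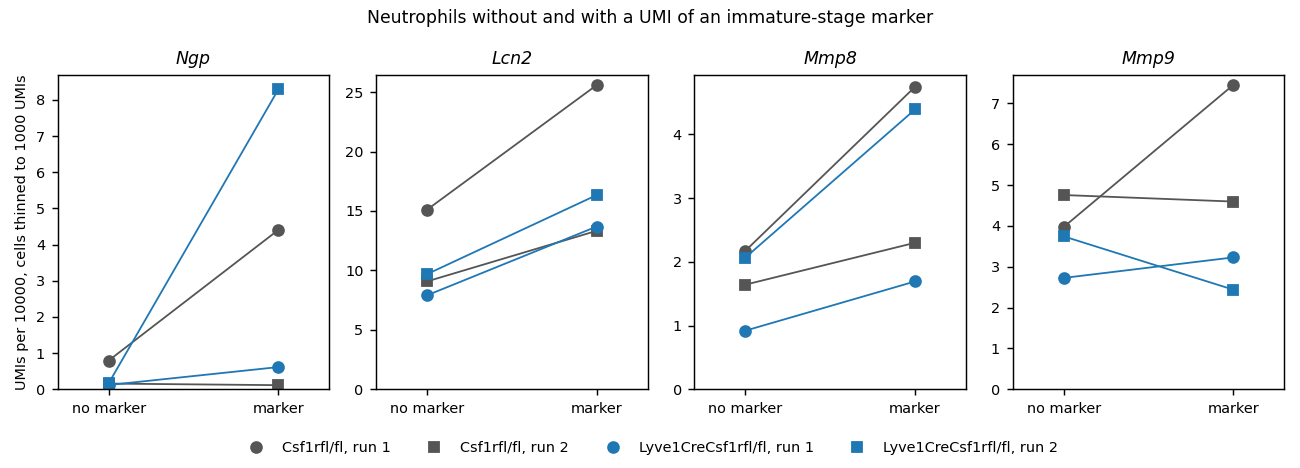
UMIs per 10000 of Ngp, Lcn2, Mmp8 and Mmp9 in neutrophils without and with a UMI of an immature-stage marker, each cell thinned to 1000 UMIs, with 1 line per tumor. Lcn2 and Mmp8 are higher with a marker in all 4 tumors, Ngp in 3 and Mmp9 in 2.

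Between genotypes no granule gene passed the test in neutrophils. With UMIs summed per tumor and edgeR's quasi-likelihood test, 0 of 6810 genes had an adjusted p under 0.05 (a background of 0%), with 107 at an unadjusted p under 0.05, and DESeq2 also called 0. The 6 specific and gelatinase genes were tested and the 4 azurophil genes were below the filter. Mmp9 was at 4.43 ± 0.205 UMIs per 10000 in the Csf1rfl/fl tumors and 3.34 ± 0.607 in the Lyve1CreCsf1rfl/fl tumors (mean ± SD, n = 2), a log2 difference of -0.45 ± 0.26 (SE). Lcn2 was at 13.8 ± 5.99 and 9.99 ± 1.15, and Mmp8 at 2.32 ± 0.844 and 1.72 ± 0.683, with log2 differences of -0.52 ± 0.35 and -0.51 ± 0.33. Within runs, Mmp9 was lower in the Lyve1CreCsf1rfl/fl tumor in both, but was not called with run as a block either (adjusted p = 0.822, edgeR). The share of all genes lower in both runs was not counted. Lcn2 and Mmp8 were lower in the Lyve1CreCsf1rfl/fl tumor of run 1 and higher in that of run 2. With 2 tumors a genotype, the smallest two-sided p of an exact permutation test is 0.333.

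Ltf and Camp were the genes whose call turned on the fit. Their log2 differences were 1.78 ± 0.59 and 2.52 ± 1.01, both with an adjusted p of 0.999, and with run as a replicate block they were 1.73 and 2.14, with adjusted p of 0.000131 and 9.99e-06 (edgeR). In the Lyve1CreCsf1rfl/fl tumor of run 2, 1 cell held 58 of the 74 Ltf UMIs and 88 of the 94 Camp UMIs of its neutrophils. A fit without that cell alone was not run. In a further fit the richest cell of each of the 10 genes was left out in each tumor, 18 neutrophils in all. The log2 difference was then 0.54 for Ltf and 0.04 for Camp. With the block it was 0.65 and -0.13, with adjusted p of 0.964 and 0.9998 (edgeR). Ngp changed sign in the same step, from 0.24 to -1.44, and also without the Lyve1CreCsf1rfl/fl tumor of run 2, to -1.52. Lcn2 was 0.10 without the Csf1rfl/fl tumor of run 1.

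**Figure D5:**
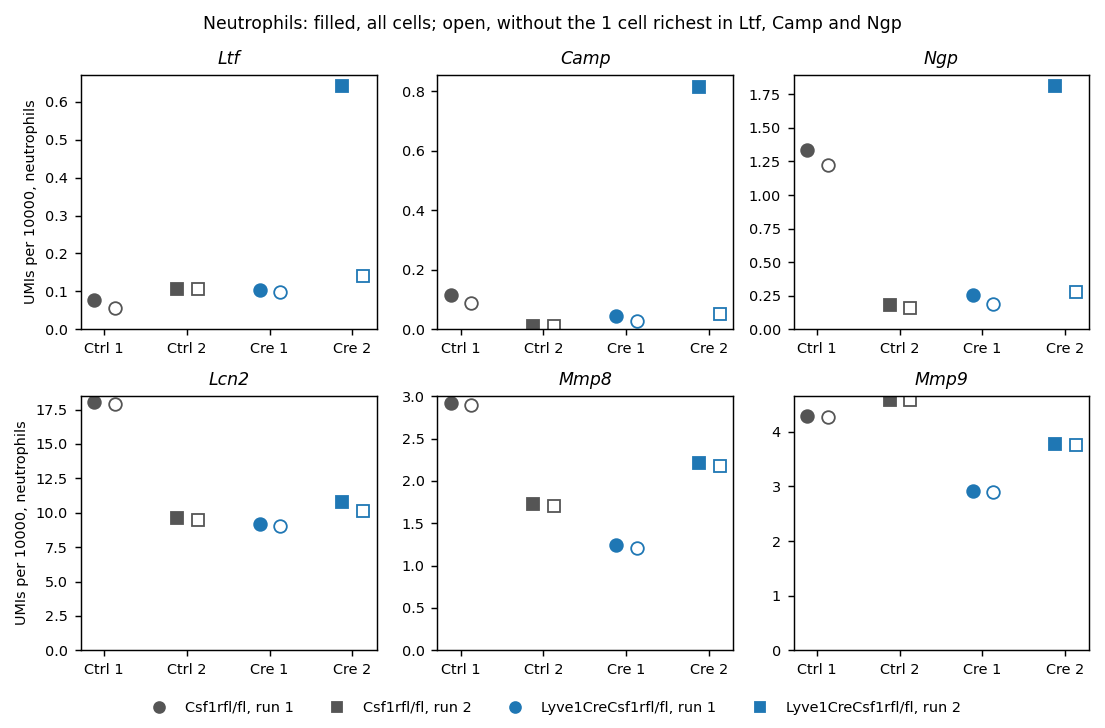
UMIs per 10000 of the 6 specific and gelatinase genes in neutrophils of the Csf1rfl/fl tumors (Ctrl) and Lyve1CreCsf1rfl/fl tumors (Cre) of runs 1 and 2, with all cells (filled) and without the 1 neutrophil per tumor richest in Ltf, Camp and Ngp (open). In the last tumor that cell takes Ngp from 1.81 to 0.279 and Camp from 0.816 to 0.0523, while Lcn2, Mmp8 and Mmp9 hardly move.

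In monocytes and macrophages, 0 of 11709 genes passed (a background of 0%), with 286 at an unadjusted p under 0.05, while DESeq2 called 5, none of them among the 10. Prtn3 was at 0.253 and 0.177 UMIs per 10000 in the Csf1rfl/fl tumors and at 0.578 and 0.266 in the Lyve1CreCsf1rfl/fl tumors, a log2 difference of 1.02 ± 0.40 (adjusted p = 0.99998, edgeR). The highest of these values holds cell 2, which had 228 of the 432 Prtn3 UMIs of that tumor's class. Elane and Ctsg had log2 differences of 2.65 ± 0.74 and 4.11 ± 1.27, and cell 2 held 204 of the 356 Elane UMIs and 191 of the 230 Ctsg UMIs of the class. Without that tumor these were 0.68 and -1.30. Calls in this class turned on which tumor was left out. Such a fit has 1 tumor in 1 genotype, which is assumed to vary like the 2 of the other, so its p-values rest on the spread of that genotype alone. Mmp9 passed at 1.86 without the Csf1rfl/fl tumor of run 1 (adjusted p = 0.000102) and at -2.08 without the Lyve1CreCsf1rfl/fl tumor of run 2 (adjusted p = 0.000336, edgeR), and was at 0.01 ± 0.91 with all 4. Elane passed without each of the other 3 tumors in turn, at 2.32 to 3.45, as did Ctsg at 3.80 to 5.08. Prtn3 passed without the Csf1rfl/fl tumor of run 1, at 1.39, and without the Lyve1CreCsf1rfl/fl tumor of run 2, at 1.53, both with cell 2 included. Without the richest cell of each gene in each tumor, Prtn3 was at 0.39 and Elane at 0.57, and neither passed (adjusted p = 0.99999, edgeR). In the cells with Ly6c2 alone Prtn3 was at 0.345 ± 0.0888 and 0.352 ± 0.0209 (mean ± SD, n = 2). Such cells made up 1419 of 2681 and 1481 of 2415 cells of the class in the Csf1rfl/fl tumors and 974 of 1509 and 707 of 1058 in the Lyve1CreCsf1rfl/fl tumors. Lcn2 was at 0.248 and 0.224 against 0.230 and 0.283, and Mmp8 at 0.248 and 0.375 against 0.270 and 0.475, with log2 differences of 0.13 ± 0.20 and 0.26 ± 0.27.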

How the data were processed

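Viable CD45+ cells of 4 tumors were measured by Chromium 3′ sequencing in 2 runs. The deposited count table holds whole UMI counts, which the authors made with Cell Ranger 6.0.1 on mm10, and hashtag counts. The authors kept singlets with under 5% mitochondrial reads outside clusters specific to 1 tumor, using Seurat, and deposited a second table of corrected score values, which was used only to find which cells were kept. Of 53361 barcodes 28429 (53.3%) were kept. The tumor was that of the hashtag with the higher centered log ratio, which scales each hashtag by its geometric mean over the run. The 10 genes and the lists were chosen with earlier results of these data known, and the gate thresholds after its markers had been seen.

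Doublets called by Scrublet (scanpy 1.11.5) stayed in, with their removal as an alternative. Of the cells above the S100a8 and S100a9 minimum, 540 lay within a factor of 2 of it. The raw count of the hashtag so assigned was under 3 times the other in 19.8% of the neutrophils of the Csf1rfl/fl tumor of run 1. In the other tumors this held for at most 3.48%. UMIs were summed per tumor and class and tested by edgeR 4.0.16 (quasi-likelihood, TMM factors, filterByExpr, Benjamini-Hochberg adjustment over all genes tested) in R 4.3.3, with DESeq2 1.42.0, and library totals without scaling factors, as alternatives. On simulated counts, all 200 genes changed by a log2 of 2 were recovered (100%) in each comparison, with 9, 1 and 9 false calls. No smaller change was simulated. The recovery therefore does not show that differences such as -0.52 for Lcn2 and -0.51 for Mmp8 between genotypes in neutrophils could be called. All 200 were drawn from genes with a logCPM (a log2 level against the library total) over 5. Sparse genes such as Ltf and Camp were thus not covered. No difference between runs was simulated. Same-numbered tumors share a run, which makes the number a batch by design. The run to run log ratios of the genotypes correlated across genes at r = 0.293 in neutrophils and 0.321 in monocytes and macrophages. The correlation was stronger among better expressed genes, those with a logCPM over 5. There r was 0.507 over 2473 genes in neutrophils and 0.701 over 3832 genes in monocytes and macrophages. Genes are not independent. The main tests between genotypes had no block for run. Each sample is 1 tumor, so p-values measure the spread between 2 tumors per genotype. The genes of like pattern were the 5 with the highest ratio among those with at least 20 UMIs and a higher level in each tumor. Gene positions are from GENCODE vM21, and promoters of 9 of the 10 genes from RefSeq. The values of 1 marker gene are not reported here.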

Additional observations from a re-analysis of the deposited data

Results flagged for a closer look

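Barcodes that the authors had not kept, 24932 with 51.6% of all UMIs, also held granule mRNAs, and no comparison above used them. They held 74.5% of the Camp UMIs, 57.4% of Ngp, 52.3% of Lcn2, 52.0% of Mmp9, 50.3% of Mmp8, 48.0% of Ltf, 44.7% of Prtn3, 27.0% of Elane, 10.2% of Ctsg and 7.63% of Mpo. Under the same gate, neutrophils among them numbered 2707 in run 1 and 461 in run 2, and Ngp was at 1.297 and 2.52 UMIs per 10000 in them beside 0.690 and 0.649 in kept neutrophils of those runs. Camp was at 0.259 and 0.623 beside 0.0721 and 0.242. In run 2 these levels rest on single barcodes, since among neutrophils not kept the highest value in a cell was 287 UMIs for Ngp and 78 for Camp, and among those kept 1 cell held 177 and 88. Groups of 2 tumors are too small to ask whether 1 stands apart.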

How the results depend on the processing

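In neutrophils, the count of genes called between genotypes was 6 with no filter, 9 with the replicate block and 0 to 3 with 1 tumor left out. Mmp8 was 0.0132 under a broader gate, Ngp -1.44 without the richest cells, and Camp and Ngp -0.13 and -1.37 with the replicate block and without those cells. With 1 tumor left out, Lcn2 lay between -0.98 and 0.10, Ngp between -1.52 and 2.41 (-0.65 without the Csf1rfl/fl tumor of run 2) and Camp between -0.41 and 5.04. In monocytes and macrophages the count was 5 by DESeq2, 95 with no filter, 17 with the replicate block and without the richest cells, and 21 to 130 with 1 tumor left out. There Mmp9 was -0.0174 with no filter, -0.46 without Scrublet doublets, -0.0339 with a hashtag ratio of 3 or more, -2.75 under a stricter gate, -0.90 without the richest cells and -0.93 with the block as well, and between -2.08 and 1.86 with 1 tumor left out (-0.77 without the Csf1rfl/fl tumor of run 2). Ctsg was -0.42 without doublets and between -1.30 and 5.08 with 1 tumor left out, and Mmp8 between -0.0860 and 0.563. The cause of these changes was not tested. In neutrophils against monocytes and macrophages, all 96 values obtained for the genes tested kept direction and call. Those of Ltf, Ngp, Prtn3 and Elane carry no weight, since these genes passed the filter only through the class where they are high. The broader gate, the leaving out of richest cells, the library totals without scaling factors and the equal weighting of tumors were chosen after seeing the data. In the Lyve1CreCsf1rfl/fl tumor of run 1, 1 cell in the monocyte and macrophage gate held most Elane, Mpo and Ctsg UMIs of its class. In that of run 2, 1 neutrophil held most Camp, Ngp and Ltf UMIs of its class. With such cells and 2 tumors a genotype, a fold between genotypes is not precise.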
